A study of Mus musculus with 12 samples.

Results

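The cytosolic ribosomal protein genes encode the protein subunits of the ribosome that translates cytoplasmic mRNA. They were taken as the probe sets whose platform annotation gives a single gene symbol that begins Rps, Rpl or Rplp followed by a digit, or is Rpsa. Kinases named Rps6k, pseudogenes and genes named as ribosomal protein-like were left out. The rule gave 91 of 22690 probe sets, which represent 42 of 12393 genes, 20 of the small subunit and 22 of the large. Of these, 41 genes and 75 probe sets passed a filter on low signal and were tested. Rpl14 did not pass, at 14.4 to 20.9 in testosterone mice after withdrawal, against 10.3 to 19.9 in vehicle mice after withdrawal.

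Liver RNA of 12 mice, all females of the inbred C57BL/6 strain, was hybridised to 1 Affymetrix array per mouse, in 4 groups of 3 mice: testosterone after withdrawal, vehicle after withdrawal, testosterone when treatment ended and vehicle when treatment ended. Testosterone mice had received 0.9 mg of the hormone in 100 µl of sesame oil under the skin, 2 injections per week for 3 weeks, and vehicle mice the oil alone. Withdrawal lasted 12 weeks according to the sample labels but 3 weeks according to the series' design text, and which of them holds is unknown. The labels name no transgene or deletion, and no age of the mice was found in them. Since whole liver was measured, fewer cells of a type and less RNA per cell cannot be told apart.

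Each ribosome holds 1 copy of nearly all of its proteins, and cells make them in step with ribosomal RNA and with growth. Ribosomal protein mRNAs begin with a run of pyrimidines, the terminal oligopyrimidine tract, through which their translation follows mTOR signalling, and many of their promoters hold binding sites for ETS factors such as GABP. In liver, which secretes most plasma proteins, they are among the most abundant mRNAs. They are therefore often used as reference genes, a use that depends on signals staying level under treatment.

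RefSeq promoters (GRCm38.p6) could be matched for 37 of the 42 genes. The letters CTTTC stood on the coding strand between 40 bases before and 20 bases after the annotated start in 12 of the 37 (32.4%), against 9.42% of 27025 genes, and on the other strand in 8.11%, against 8.34%. The letters CGGAAG, the core of ETS sites, stood on either strand from 250 bases before to 50 after the start in 73% of the 37, against 18.8% of all genes. A match describes letters only. The following stretches are 60 bases each, 5′ to 3′ on the strand of the gene. They are those of the genes called in any comparison except Rps29, for which no promoter was matched. Rps10 and Rpl27 are included for their called probe sets, and other genes with a called probe set, such as Rpl41, are not shown. Capitals mark CTTTC and CGGAAG on either strand. Rpl27a, Rpl38, Rplp2 and Rps10 carry CTTTC near the start and Rpl37, Rpl38, Rps6 and Rps10 carry CGGAAG, whereas the Rpl27 stretch holds neither.
Rpl27a, chr7:109519155-109519214, plus strand: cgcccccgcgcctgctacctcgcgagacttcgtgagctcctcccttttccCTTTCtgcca
Rpl37, chr15:5116573-5116632, plus strand: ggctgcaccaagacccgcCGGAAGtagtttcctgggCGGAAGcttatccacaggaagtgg
Rpl38, chr11:114668540-114668599, plus strand: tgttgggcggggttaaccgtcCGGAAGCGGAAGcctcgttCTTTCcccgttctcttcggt
Rplp2, chr7:141447611-141447670, plus strand: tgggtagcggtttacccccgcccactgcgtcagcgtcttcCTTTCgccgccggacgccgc
Rps6, chr4:86857348-86857407, minus strand: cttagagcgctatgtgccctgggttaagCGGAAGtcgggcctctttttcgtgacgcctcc
Rps10, chr17:27635225-27635284, minus strand: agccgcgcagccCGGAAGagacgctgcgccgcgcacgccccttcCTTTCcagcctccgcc
Rpl27, chr11:101442205-101442264, plus strand: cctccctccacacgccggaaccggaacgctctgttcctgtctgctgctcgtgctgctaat

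The signals were high and steady. The deposited values are linear array intensities, and array medians lay between 20.1 and 22.6. Of the 41 genes tested, 34 were among the 722 brightest of all 7217 tested. The median SD of log2 signal among mice of a group was 0.11 over the 41 genes, against 0.18 over all genes tested and 0.11 over the 722 brightest. The other 7, Rpl12, Rpl27a, Rpl37, Rpl39, Rps25, Rps27 and Rps6, had mean signals under 150. Among them, Rpl12 (group means of 13.2 to 24.7), Rps25 (19.7 to 29.0) and Rps27 (22.6 to 38.3) lay near the array medians. Probe sets differ in how well they bind, so these levels are not set against each other as amounts of mRNA. Many family members share sequence with processed pseudogenes, so a signal may include that of a copy. Of the 91 probe sets, 66 carry a suffix that marks probes shared among transcripts. That count does not separate transcripts of the same gene from those of other genes. A further 102 probe sets that name a ribosomal protein among several symbols were not used, and Rplp1, Rps27a, Rpl3, Rpl5, Rpl10, Rpl23 and Rpl32 were not analysed here.

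At the end of treatment, most ribosomal protein mRNAs were close in testosterone mice to their level in vehicle mice. The median log2 change over the 41 genes was 0.05, against 0.04 over all genes tested and 0.00 over the 722 brightest, and 34 of the 41 lay within 0.25 of 0 (82.9%, against 56.3% of all genes and 63.6% of the 722 brightest). Leaving out 1 mouse moved the median to between 0.01, without vehicle mouse 1 or 3 or testosterone mouse 2, and 0.07, without vehicle mouse 2; it was 0.02 without testosterone mouse 1 and 0.03 without testosterone mouse 3. In the limma fit, 3 genes rose and 0 fell at an adjusted p under 0.05, whereas 17.4% of all genes tested were called, 9.42% upward and 8.01% downward. Without adjustment, 10 of 41 (24.4%) had p under 0.05, against 32% of all genes. The 95% interval of the change lay within 0.5 of 0 on the log2 scale for 33 of the 41 (80.5%, against 41% of all genes and 69% of the 722 brightest) and within 1 for 38, the exceptions being Rpl12, Rps25 and Rps27.

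**Figure D1:**
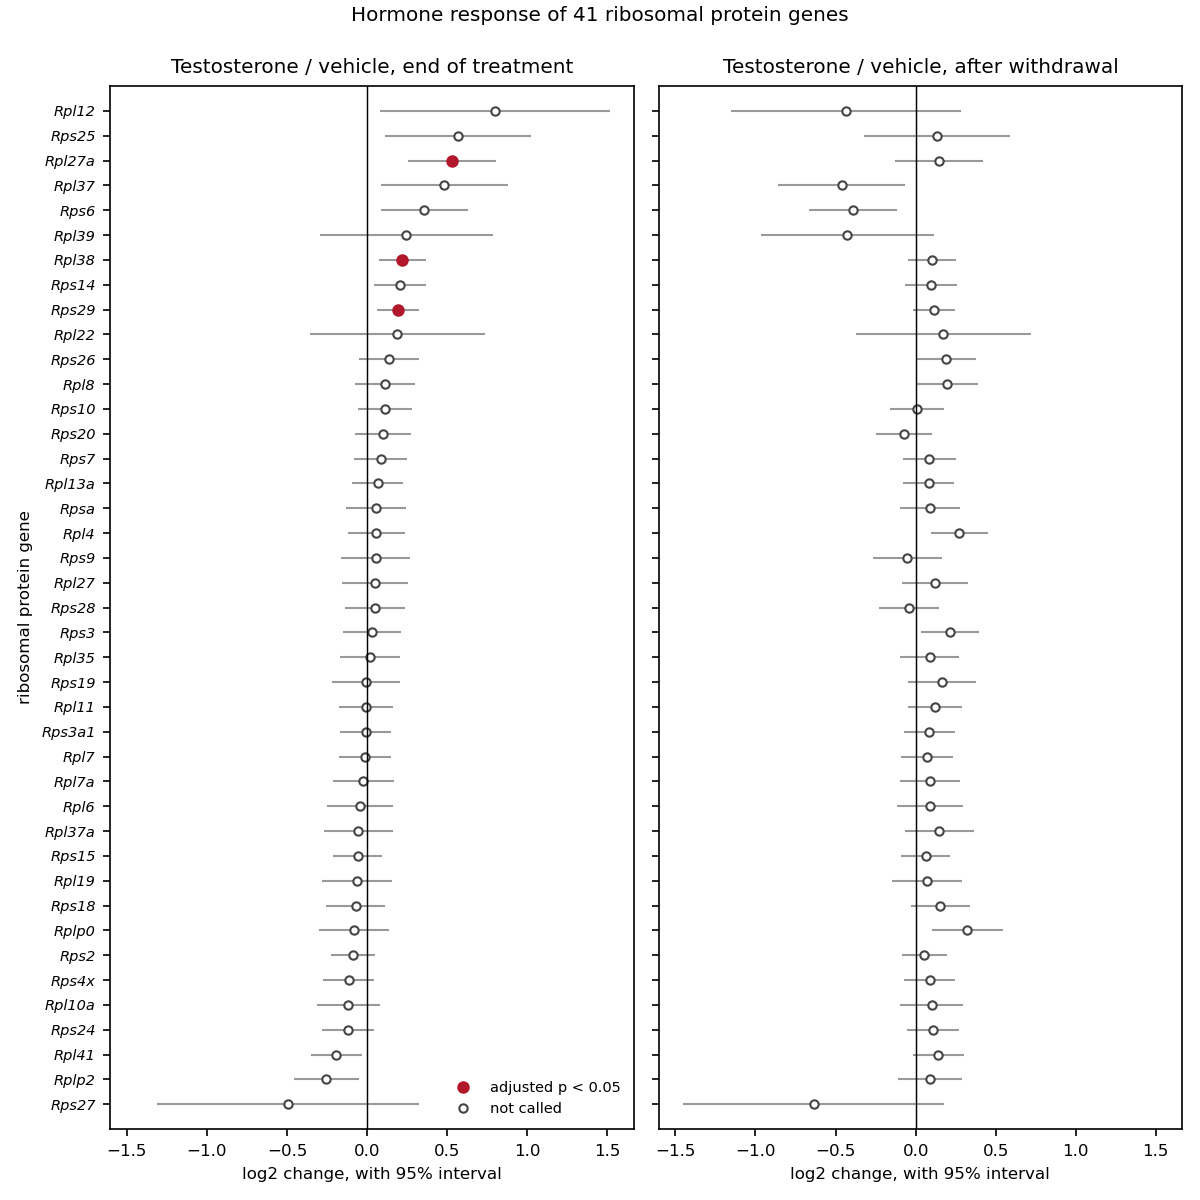
Log2 change between testosterone and vehicle for the 41 ribosomal protein genes, at the end of treatment (left) and after withdrawal (right). Points are the fitted changes and lines their 95% intervals, sorted by the change at the end; filled points passed an adjusted p of 0.05, which 3 genes did at the end and 0 after withdrawal, and the widest intervals belong to the dim probe sets such as Rps27 and Rpl12.

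The largest called increase was that of Rpl27a, a protein of the large subunit. Its signal was 114, 101 and 117 in the 3 testosterone mice at the end of treatment, against 78.9, 77.8 and 73.1 in the vehicle mice of that time. All 3 testosterone mice lay above all 3 vehicle mice. Means were 111 ± 8.34 in testosterone mice and 76.6 ± 3.09 in vehicle mice (SD, n = 3 each), a 1.45-fold increase (log2 0.53 ± 0.13 SE, adjusted p = 0.0118 in limma). After withdrawal the signal was 103, 92.4 and 102 in testosterone mice, against 73.8, 94.5 and 103 in vehicle mice, and the groups overlapped (log2 0.15, adjusted p = 0.553). The other Rpl27a probe set was at the floor on all 12 arrays, so the increase rests on 1 probe set.

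The other 2 increases were small. Rpl38, a large subunit protein that in mice is known for its part in translating Hox mRNAs, read 3190, 3121 and 3433 in testosterone mice at the end and 2692, 2934 and 2740 in vehicle mice. The groups did not overlap, and the means were 3248 ± 164 with testosterone and 2789 ± 128 with vehicle (SD, n = 3 each; 1.16-fold, log2 0.22 ± 0.07 SE, adjusted p = 0.0408). Rps29, a zinc-binding protein of the small subunit, read 3317, 3320 and 3248 in testosterone mice, against 2830, 3038 and 2788 in vehicle mice, without overlap (1.14-fold, log2 0.19 ± 0.06 SE, adjusted p = 0.0414). The adjusted p-values of Rpl38 and Rps29 were near the threshold. Of the 3 tested probe sets of Rps29, with changes of 0.02 to 0.19, 1 was called. Rpl38 lost its call without any 1 of testosterone mice 1, 2 or 3 or vehicle mice 1 or 3 at the end, or vehicle mice 2 or 3 after withdrawal, with changes of 0.18 to 0.25 and adjusted p of 0.053 to 0.142. Rps29 lost its call without any of the same mice, and also without testosterone mouse 2 after withdrawal, with changes of 0.17 to 0.20 and adjusted p of 0.0501 to 0.114. Rpl27a kept its call whichever mouse was left out, so the count was 1 without any of the 7 mice named for Rpl38 and 4 at most, without testosterone mouse 1 after withdrawal or vehicle mouse 2 at the end.

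Some further genes had groups that did not overlap, in shares near those of all genes. At the end, 8 of the 41 had all testosterone mice above all vehicle mice (Rpl27a, Rpl37, Rpl38, Rps14, Rps25, Rps26, Rps29 and Rps6), against 20.6% of all genes tested. Another 5 had them all below (Rpl41, Rplp2, Rps18, Rps2 and Rps4x), against 15.1% of all genes. Rpl41, the shortest protein of the ribosome, read 2114, 2376 and 2376 in testosterone mice and 2531, 2701 and 2612 in vehicle mice (log2 -0.19 ± 0.07 SE, adjusted p = 0.085). Rplp2, a protein of the stalk that recruits translation factors, changed by -0.25 ± 0.09 SE (adjusted p = 0.0746).

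Rpsa, Rps3, Rpl11 and Rps19 were not called at the end. Rpsa, which also serves as a laminin receptor, changed by a log2 of 0.06 (95% interval -0.13 to 0.24). Rps3, which is also a DNA repair enzyme, changed by 0.03 (-0.15 to 0.21), and Rpl11, which binds MDM2 when ribosome assembly fails, by -0.01 (-0.18 to 0.16). Rps19, the gene most often mutated in human Diamond-Blackfan anaemia, changed by -0.01 (-0.22 to 0.21). The intervals of these 4 leave room for small changes in either direction. Rpl13a, Rplp0, Rpl37a, Rpl4 and the X-linked Rps4x changed by 0.07, -0.08, -0.05, 0.06 and -0.12 on the log2 scale, none of them called.

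After withdrawal, 0 of the 41 genes was called by limma between testosterone and vehicle, against 6% of all genes tested, 2.74% upward and 3.26% downward, and 7 (17.1%) had an unadjusted p under 0.05, against 20.6% of all genes. The changes leaned upward: 33 of the 41 were positive (80.5%), against 44.3% of all genes and 62.6% of the 722 brightest. They were small, with a median of 0.09, against -0.04 over all genes and 0.06 over the 722 brightest. The small subunit (median 0.09 over 20 genes) and the large subunit (0.10 over 21) had like medians. Scaling moved this median: it was 0.02 after quantile normalization, where all genes had -0.00, and 0.18 when arrays were centred on their medians, where all genes had 0.05.

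**Figure D2:**
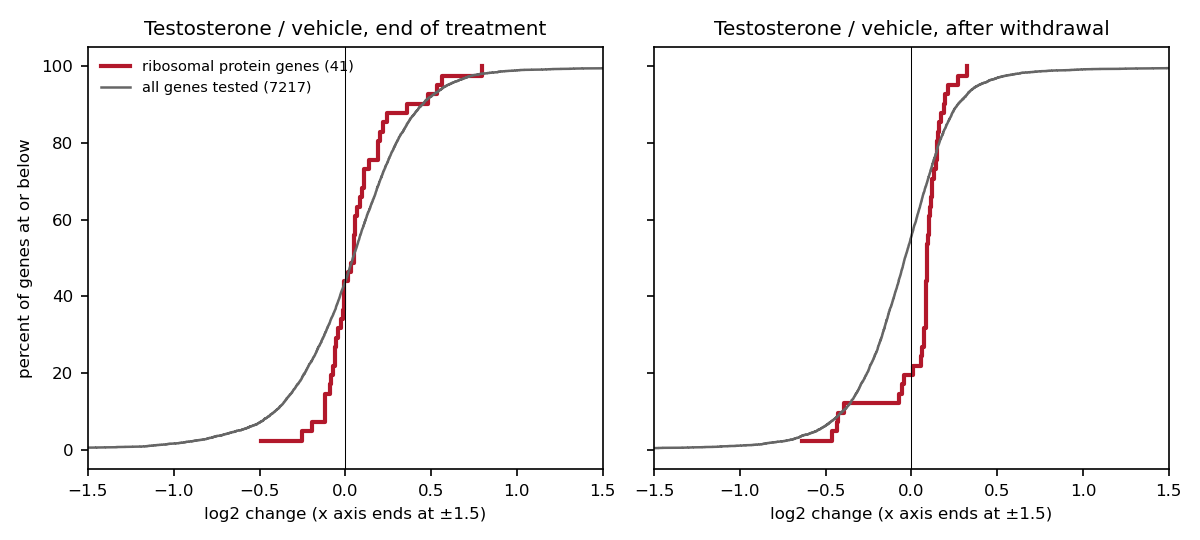
Cumulative share of genes by log2 change between testosterone and vehicle, for the 41 ribosomal protein genes and all 7217 genes tested, at the end of treatment (left) and after withdrawal (right). The ribosomal protein curve is steeper than that of all genes at both times and is centred on 0.05 at the end and on 0.09 after withdrawal.

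Rplp0 and Rpl4 had the largest positive differences after withdrawal. Rplp0, the base of the stalk and a common reference gene, read 2147, 2643 and 2616 in testosterone mice after withdrawal, against 2046, 1913 and 1935 in vehicle mice. Every testosterone mouse lay above every vehicle mouse, and the change was 0.32 ± 0.10 SE (1.25-fold, adjusted p = 0.0788). Rpl4, which lines the tunnel through which new proteins leave, read 2139, 2684 and 2525 in testosterone mice, against 2102, 2055 and 1903 in vehicle mice (0.27 ± 0.08 SE, adjusted p = 0.0677). Rps29 was the only other gene with all testosterone mice above (3 in all, against 11.2% of all genes), and Rps6 the only one with all below (1, against 14.7%). Without testosterone mouse 1 after withdrawal, 4 genes were called, 3 upward and 1 downward, among them Rplp0 (0.42, adjusted p = 0.0215), Rpl4 (0.37, adjusted p = 0.00819) and Rpl37 (-0.71, adjusted p = 0.0132). Rplp0 was also called without vehicle mouse 2 (adjusted p = 0.0365) or vehicle mouse 3 (adjusted p = 0.0406) of the end of treatment.

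The upward lean was greatest in 1 mouse. In testosterone mouse 2 after withdrawal, 34 of the 41 genes lay above their own mean over the 12 mice, with a median of 0.16 on the log2 scale. The medians of the other 2 testosterone mice of that time were -0.03 and 0.03, and those of the vehicle mice 0.02, -0.10 and -0.02. At the end they were 0.04, 0.01 and -0.03 with testosterone and -0.07, 0.06 and -0.09 with vehicle. Without testosterone mouse 2 the median change after withdrawal was 0.03, with 31 of 41 positive. The same liver had the highest summed signal of 5 acinar pancreas markers (Cpa1, Cela2a, Ctrb1, Prss2 and Cel), 780 against 319 and 33.0 in the other testosterone mice and 18.8 to 38.8 in vehicle mice of that time, and at the end it was 27.3 to 38.1 with testosterone and 25.7 to 75.7 with vehicle. Testosterone mouse 1, with the next highest marker sum, had a ribosomal protein median below 0, and the part of these markers in the result was not tested.

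**Figure D3:**
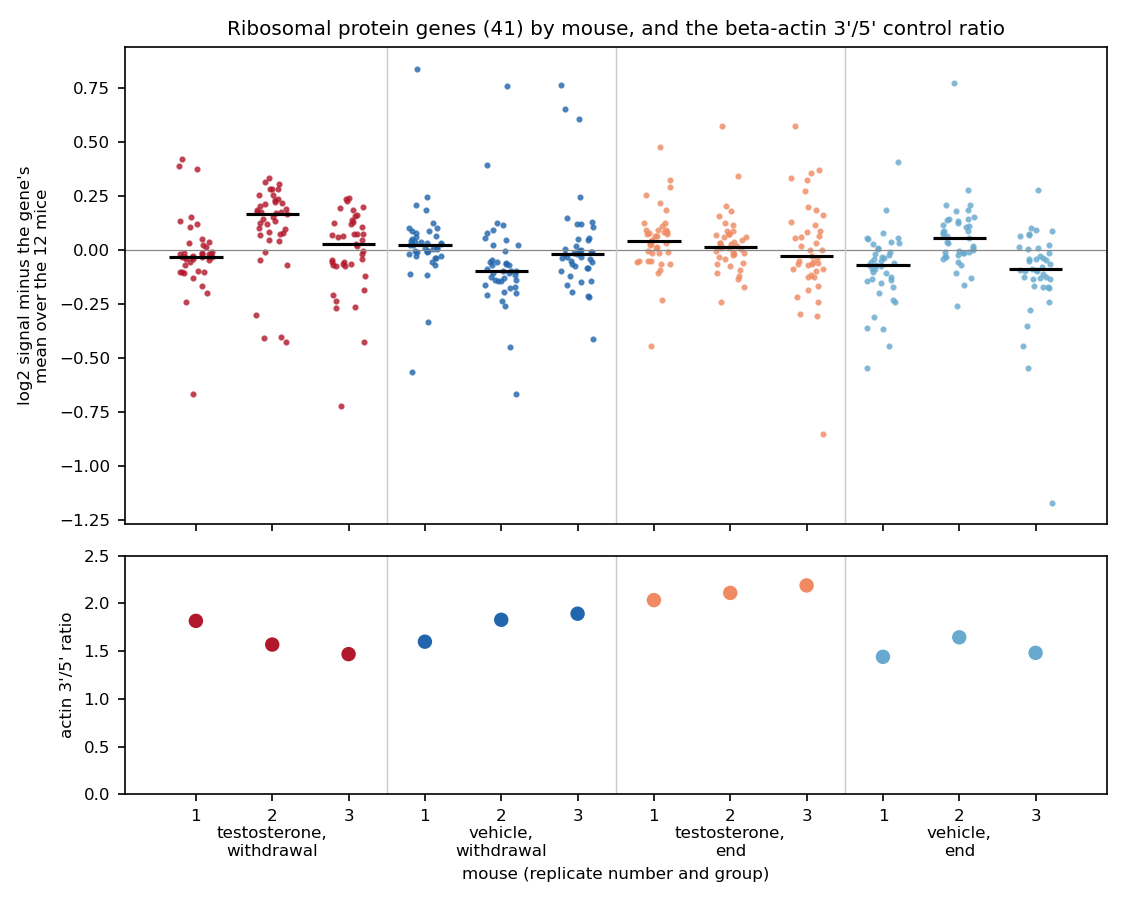
Log2 signal of each of the 41 ribosomal protein genes minus the mean of that gene over the 12 mice (upper panel, 1 point per gene, black bars the medians) and the beta-actin 3′/5′ control ratio (lower panel), for each mouse. Testosterone mouse 2 after withdrawal has the highest median, 0.16, and the actin ratio is highest in the 3 testosterone mice at the end.

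Rps6, a small subunit protein whose phosphorylation by S6 kinases is a common readout of mTOR signalling, was the only gene of the 41 called in the test of whether the response to testosterone differed between the times. Its signal was 64.6, 56.3 and 63.0 in testosterone mice and 72.8, 80.6 and 88.2 in vehicle mice after withdrawal. At the end it was 88.7, 84.3 and 95 with testosterone and 59.9, 75.2 and 74.9 with vehicle. All testosterone mice thus lay below all vehicle mice after withdrawal and above them at the end. The change was -0.39 ± 0.13 SE after withdrawal (adjusted p = 0.0883) and 0.36 ± 0.13 SE at the end (adjusted p = 0.0669), and the difference of the 2 was -0.75 ± 0.18 SE (adjusted p = 0.0451). In that difference 1 of 41 genes was called downward and 0 upward, against 2.19% of all genes tested, 0.79% upward and 1.4% downward.

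The Rps6 call was marginal. It was kept without testosterone mouse 1 or vehicle mouse 1 after withdrawal or vehicle mouse 3 at the end, and was lost without any one of the other 9 mice, with differences of -0.64 to -0.81 and adjusted p of 0.0556 to 0.135. It was also lost with the actin ratio in the fit (-0.31, adjusted p = 0.973) or the Gapdh ratio (-0.81, adjusted p = 0.288). It rests on 1 probe set, 1416142_at, since the other single-symbol probe set for Rps6 did not pass the filter and 9 that name Rps6 among several symbols were not used. Without testosterone mouse 1 after withdrawal, 4 genes were called in this difference, 2 in each direction. Rplp0 (0.50, adjusted p = 0.0414) and Rpl41 (0.39, adjusted p = 0.0367) were then higher, and Rps6 (-0.79, adjusted p = 0.0285) and Rpl37 (-1.19, adjusted p = 0.00762) lower. Without vehicle mouse 3 of the end of treatment 2 were called.

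Between the times, vehicle mice showed 1 called gene among the 41, against 17.8% of all genes tested, 11% upward and 6.83% downward. It was Rpl37, a zinc-binding large subunit protein, at 150, 138 and 199 in vehicle mice after withdrawal, against 92.8, 113 and 92.8 in vehicle mice at the end (1.62-fold, log2 0.69 ± 0.19 SE, adjusted p = 0.0195). The groups did not overlap. The call was lost without vehicle mouse 3 after withdrawal (0.54, adjusted p = 0.106), vehicle mouse 1 at the end (0.65, adjusted p = 0.062) or vehicle mouse 3 at the end (0.65, adjusted p = 0.055). It was also lost with the actin ratio in the fit (0.29, adjusted p = 0.407), where 0 of the 41 genes was called upward and 1 downward, and with the Gapdh ratio (0.61, adjusted p = 0.0591). Rpl37 read 164, 102 and 93.9 in testosterone mice after withdrawal, a wider spread than in any other group, and 138, 146 and 132 in testosterone mice at the end. All vehicle mice after withdrawal lay above those at the end in 4 genes, Rpl12, Rpl37, Rps15 and Rps28 (against 21.6% of all genes), and all lay below in Rps18 alone (against 13.5%). The count was 2 without testosterone mouse 3 or vehicle mouse 1 after withdrawal, or without testosterone mouse 3 or vehicle mouse 2 at the end. The median over the 41 genes was -0.00, against 0.06 over all genes.

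In testosterone mice, Rplp2 was higher and Rps6 lower after withdrawal than at the end, the only 2 of 41 genes called, against 10.9% of all genes tested, 5.57% upward and 5.31% downward. Rplp2 read 1357, 1692 and 1391 in testosterone mice after withdrawal, against 1261, 1137 and 1090 in testosterone mice at the end (1.27-fold, log2 0.34 ± 0.09 SE, adjusted p = 0.0294). The groups did not overlap, and the vehicle mice of both times, at 1294 to 1436 after withdrawal and 1295 to 1442 at the end, lay among the higher values. Rps6 changed by -0.54 ± 0.13 SE (1.46-fold lower, adjusted p = 0.0144), again without overlap. All testosterone mice after withdrawal lay above those at the end in 6 genes, Rpl10a, Rpl41, Rplp2, Rps15, Rps2 and Rps24 (against 14.9% of all genes), and below them in 4, Rpl39, Rps25, Rps6 and Rps7 (against 16.1%). Rplp2 lost its call without testosterone mouse 2 after withdrawal (0.24, adjusted p = 0.131), testosterone mouse 2 at the end (0.33, adjusted p = 0.0892) or testosterone mouse 3 at the end (0.30, adjusted p = 0.111). Rps6 lost its call without testosterone mouse 2 after withdrawal (-0.48, adjusted p = 0.0609) or testosterone mouse 3 at the end (-0.50, adjusted p = 0.0581). Both calls were also lost with the actin ratio in the fit, Rplp2 at 0.13 (adjusted p = 0.746) and Rps6 at -0.27 (adjusted p = 0.613). With the Gapdh ratio they were lost at 0.38 (adjusted p = 0.0936) and -0.58 (adjusted p = 0.0649). The count was 7, 6 upward and 1 downward, without testosterone mouse 1 after withdrawal, and 0 without testosterone mouse 2 of that group or testosterone mouse 3 at the end.

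**Figure D4:**
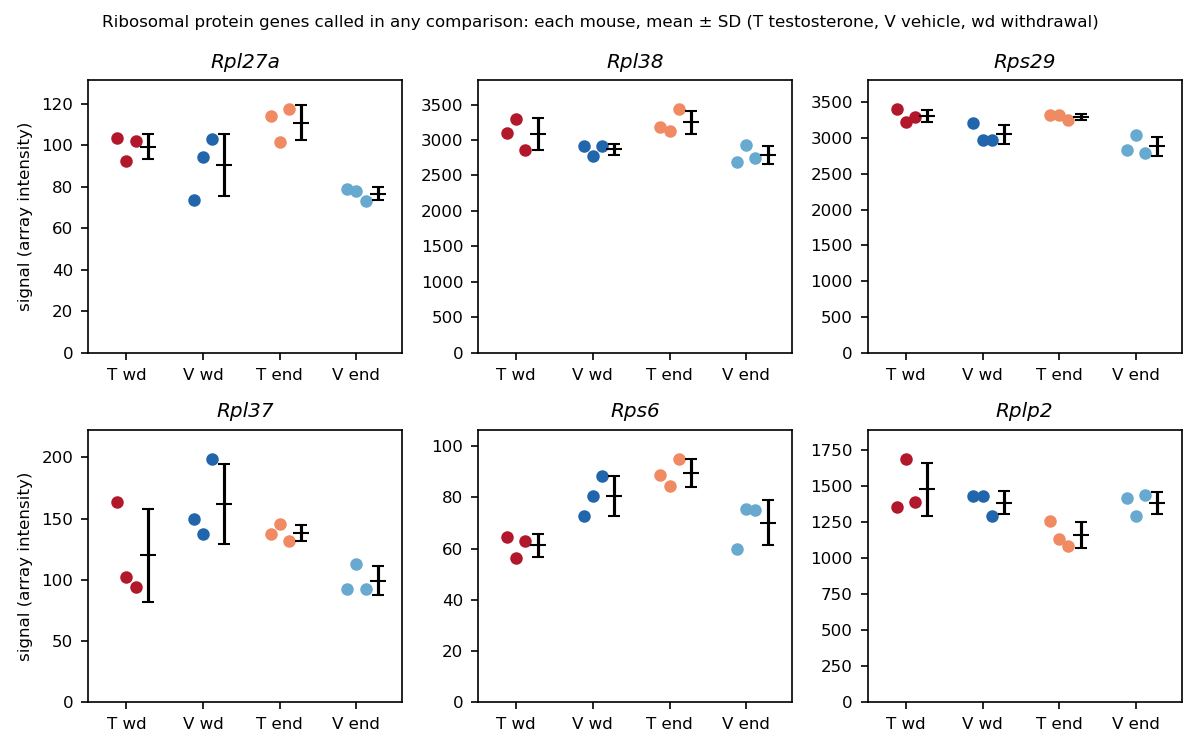
Signal of the 6 ribosomal protein genes called in any comparison, for each mouse (points) with the mean and SD of each group of 3 mice beside them. T and V stand for testosterone and vehicle, wd for withdrawal; Rps6 is lowest in testosterone mice after withdrawal and highest in testosterone mice at the end, whereas Rpl38 and Rps29 differ by under 1.2-fold between groups.

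The 7 genes with signals under 150, a grouping made after their values were seen and therefore not tested, moved otherwise than the 34 brighter ones. After withdrawal their median change with testosterone was -0.43, with 5 of 7 negative, against 0.09 and 31 of 34 positive among the brighter genes. At the end it was 0.48, with 6 of 7 positive, against 0.01 and 17 of 34. All 7 were higher after withdrawal than at the end in vehicle mice (median 0.23) and all 7 were lower in testosterone mice (median -0.26). The 7 include Rpl12, Rps25 and Rps27, whose signals lay near the array medians. Over all 4602 genes tested with signals under 150, the medians were -0.07 for testosterone against vehicle after withdrawal, 0.05 for the same at the end, 0.11 for the withdrawal time against the end in vehicle mice and -0.01 in testosterone mice. Of those 4602 genes, 61.9% were higher after withdrawal in vehicle mice and 52% lower in testosterone mice.

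The groups also differed in the 3′/5′ ratios of the array's control transcripts, a measure that goes up with RNA breakdown or incomplete labelling. After withdrawal the beta-actin control averaged 1.62 ± 0.179 with testosterone and 1.77 ± 0.154 with vehicle, and at the end it averaged 2.11 ± 0.0769 with testosterone and 1.52 ± 0.108 with vehicle (SD, n = 3 each). The two-sided exact permutation p was 0.2 after withdrawal and 0.1 at the end, and 0.1 is the smallest p this design allows. For Gapdh the ratio was 0.844 ± 0.0499 with testosterone and 0.797 ± 0.0493 with vehicle after withdrawal (exact permutation p = 0.3). At the end it was 0.930 ± 0.0254 with testosterone and 0.763 ± 0.0316 with vehicle (exact permutation p = 0.1). The pyruvate carboxylase ratio averaged 11.5 ± 3.32 with testosterone and 14.1 ± 4.42 with vehicle after withdrawal (exact permutation p = 0.4), and 18.8 ± 2.64 with testosterone and 6.06 ± 1.35 with vehicle at the end (exact permutation p = 0.1). The transferrin receptor ratio did not separate the groups (exact permutation p = 0.4 after withdrawal and 0.9 at the end), with 53.9 in testosterone mouse 3 at the end and 1.35 to 7.51 in the other mice. From high to low the actin ratio ran testosterone at the end, vehicle after withdrawal, testosterone after withdrawal and vehicle at the end. Of the 41 genes, 0 had group means in that order, against 5.36% of all genes tested, and 2 (4.88%) had them in the opposite order, against 2.55% of all genes. Per mouse, the median deviation over the 7 genes with signals under 150 was 0.04, -0.05 and -0.26 in testosterone mice and 0.19, 0.12 and 0.25 in vehicle mice after withdrawal. At the end it was 0.22, 0.18 and 0.33 with testosterone and -0.31, 0.02 and -0.35 with vehicle, so that the mice with the highest actin ratios also had high values for these genes. The part of the ratio in that pattern was not tested.

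Within groups, ribosomal protein signal was related to the actin ratio in a fit that held the 4 group means. In limma, 0 of the 41 slopes was called, and neither was any of the 7217 over all genes, 0% of them. At an unadjusted p under 0.05 the counts were 6 of 41 (14.6%) and 7.66% of all genes. The median slope, in log2 signal per doubling of the ratio, was -0.18 over the 41 genes, against 0.03 over all genes and -0.16 over the 722 brightest. Rpl22 (2.90), Rpl12 (2.86) and Rpl37 (1.82) had the steepest positive slopes, and Rps27 the steepest negative one (-1.96). With the Gapdh ratio in place of actin, 0 of 41 slopes had an unadjusted p under 0.05, against 9.27% of all genes. When the actin ratio was added to the comparison at the end, 0 of the 41 genes and 78 of the 7217 genes were called, and Rpl27a changed by 0.19 (adjusted p = 0.824). In this design the ratio and the hormone cannot be told apart at the end of treatment. The same holds for the ratio and the time in testosterone mice. There the actin, Gapdh and pyruvate carboxylase ratios were lower after withdrawal than at the end (exact permutation p = 0.1 each). In vehicle mice the pyruvate carboxylase ratio averaged 14.1 after withdrawal and 6.06 at the end (exact permutation p = 0.1). That ratio and the time cannot be told apart in vehicle mice either, and its part in the Rpl37 call was not tested. For actin and Gapdh in vehicle mice the exact permutation p was 0.2 and 0.4.

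Probe sets of the same gene did not always move alike. At the end, 7 of 75 probe sets were called upward and 1 downward, against 19.6% of the 11136 tested, 9.46% upward and 10.2% downward. Of the 17 genes with more than 1 tested probe set, the changes of a gene spanned a median of 0.19 on the log2 scale, 9 spanned under 0.25, and 5 had probe sets on both sides of the threshold. None had probe sets called in opposite directions in any comparison. After withdrawal 1 probe set was called, upward, against 4.92% of all, 2.21% upward and 2.71% downward. In the difference between the times 1 was called upward and 2 downward, against 4.97% of all, 2.71% upward and 2.26% downward. In vehicle mice between the times 2 were called in each direction, against 16.8%, 9.66% upward and 7.18% downward, and in testosterone mice 1 in each, against 10.7%, 5.85% upward and 4.8% downward.

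**Figure D5:**
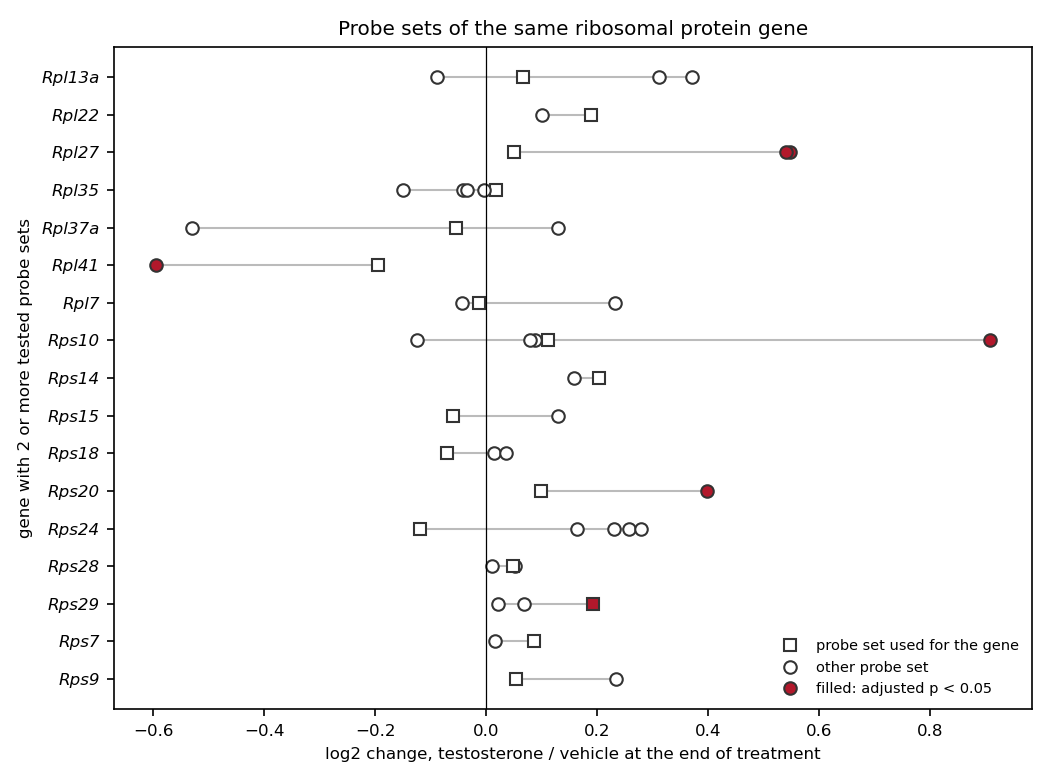
Log2 change between testosterone and vehicle at the end of treatment for each tested probe set of the 17 ribosomal protein genes that have more than 1. Squares mark the probe set that stands for the gene, circles the others and filled symbols an adjusted p under 0.05; the widest span, 1.03, is that of Rps10.

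The widest disagreement was that of Rps10, a small subunit protein at the ribosome's head. Probe set 1439374_x_at read 339, 283 and 566 in testosterone mice at the end, against 157, 252 and 208 in vehicle mice (log2 0.91 ± 0.27 SE, adjusted p = 0.0311). The other 4 tested probe sets of Rps10 changed by -0.13 to 0.11 and were not called. For Rpl27, a large subunit protein, 1453096_x_at read 519, 486 and 486 in testosterone mice at the end, against 318, 313 and 401 in vehicle mice (0.54 ± 0.12 SE, adjusted p = 0.00699), and 1448217_a_at changed by 0.55 (adjusted p = 0.0284). The brightest Rpl27 probe set, which stands for the gene, changed by 0.05. Rps20 had a second probe set at 0.40 ± 0.11 SE (adjusted p = 0.017), against 0.10 for the one that stands for the gene.

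A probe set of Rpl41 was the only one called downward at the end. It was 1422623_x_at, at 1019, 1085 and 1035 in testosterone mice, against 1550, 1854 and 1372 in vehicle mice (1.51-fold lower, log2 -0.59 ± 0.10 SE, adjusted p = 0.000933). The groups did not overlap, and the brighter Rpl41 probe set changed by -0.19. After withdrawal the single called probe set was 1455001_x_at of Rpl13a, the protein that in human cells leaves the ribosome to silence inflammatory mRNAs. It read 494, 575 and 471 in testosterone mice, against 386, 234 and 339 in vehicle mice (0.71 ± 0.16 SE, adjusted p = 0.0155). The other tested probe sets of Rpl13a, among them the brightest, changed by 0.08, 0.10 and 0.14 and were not called. The order of groups seen in the actin ratio was shared by 4 of the 75 probe sets (5.33%), against 5.74% of all tested: 1439374_x_at of Rps10, 1448217_a_at of Rpl27, 1456436_x_at of Rps20 and 1456628_x_at of Rps24. The first 3 of these were among the 8 called at the end, and the part of the control ratio in those calls was not tested.

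Genes that build the ribosome changed in few members as well. Of 49 tested genes of ribosome biogenesis, which make and process ribosomal RNA and assemble subunits, 3 rose and 2 fell at the end, against 9.42% and 8.01% of all genes, and 0 were called after withdrawal, against 6%. Utp18 (0.61) and Ddx21 (0.56) rose and Nop16 (-0.83) and Polr1b (-0.88), a subunit of the polymerase that transcribes ribosomal RNA, fell. Polr1b was dim, at 20.6 to 26.5 in mice after withdrawal and 6.35 to 16.5 in mice at the end, and passed the filter only through the mice after withdrawal, so its difference between the times is not read as support. In testosterone mice 4 of the 49, Polr1b among them, were higher after withdrawal than at the end and 0 lower, against 5.57% and 5.31% of all genes. Nop16 averaged 125 ± 8.11 in testosterone mice after withdrawal and 56.6 ± 9.23 in those at the end (2.23-fold, adjusted p = 0.0016). In vehicle mice 5 of the 49 were higher and 0 lower, against 11% and 6.83% of all genes, with Rrs1 at 122 ± 18.1 after withdrawal and 67.4 ± 4.57 at the end (1.80-fold, adjusted p = 0.000608). Rrs1 was the only one of the 49 called in the difference between the times (-0.82, adjusted p = 0.0322). Median changes of the list were 0.04 after withdrawal and 0.07 at the end, against -0.04 and 0.04 over all genes.

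Translation factors and other mRNAs with the same pyrimidine tract gave 26 tested genes, of which 0 rose and 2 fell with testosterone at each time, against 17.4% of all genes called at the end and 6% after withdrawal. Tmsb10, an actin-binding peptide, averaged 316 ± 12.2 in testosterone mice and 440 ± 13.4 in vehicle mice after withdrawal (log2 -0.48, adjusted p = 0.0217), and 262 ± 25.2 with testosterone and 349 ± 57.5 with vehicle at the end (-0.40, adjusted p = 0.027). Vim, the intermediate filament of mesenchymal cells, fell after withdrawal (-0.87, adjusted p = 0.0155). The summed signal of 5 stellate cell markers was 152 to 198 with testosterone and 199 to 263 with vehicle at that time. The groups came close, at 197.9 against 199.3. Of the 5 markers, 2 passed the filter and 0 were called. The part of these markers in the Vim result was not tested. Btf3, which binds new protein chains, fell at the end (-0.35, adjusted p = 0.0219). Between the times, 2 rose and 3 fell in vehicle mice, against 17.8% of all genes called, among them Eif3a (0.47), Eif3l (-0.44) and Eif3m (-0.40), subunits of an initiation factor, and Tmsb10 (0.35). In testosterone mice 2 were called, against 10.9% of all genes: Fau, which encodes the precursor of ribosomal protein S30, rose (0.28, adjusted p = 0.0355) and Eef1d fell (-0.31, adjusted p = 0.0318).

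Ribosomal proteins of mitochondria, which belong to a separate ribosome, gave 10 called genes at the end. Of 74 tested, 4 rose and 6 fell at the end, against 9.42% and 8.01% of all genes, and 0 were called after withdrawal, against 6%. Mrpl15 averaged 363 ± 8.68 with testosterone and 580 ± 19.0 with vehicle at the end (1.60-fold lower, adjusted p = 0.00087), and Mrpl27 fell by 0.63 on the log2 scale. Mrps5 (0.50) and Mrpl51 (0.48) rose. In the difference between the times 1 gene was called each way, Mrpl50 (0.61) higher and Mrpl51 (-0.76) lower, against 0.79% and 1.4% of all genes. Between the times, 3 rose and 5 fell in vehicle mice, against 17.8% of all genes called, with Mrps26 (0.50), Mrpl12 (-0.46), Mrps22 (-0.43) and Mrpl50 (-0.41) the largest. In testosterone mice 2 rose and 1 fell, against 10.9% of all genes called, namely Mrpl15 (0.54), Mrpl23 (0.37) and Mrpl51 (-0.36). The shares called at the end, 10 of 74 here and 3 of 41 among cytosolic proteins, lay below the 17.4% of all genes, and the difference between the lists was not tested.

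Markers of other cell types moved with some of these groups. The summed signal of 6 hepatocyte markers was 23634 to 27900 in testosterone mice and 22090 to 24850 in vehicle mice after withdrawal, and 23684 to 24603 with testosterone and 23220 to 24977 with vehicle at the end. Of the 6, 1 was called higher with testosterone at each time, against 9.42% of all genes at the end and 2.74% after withdrawal. In vehicle mice 1 was called higher after withdrawal than at the end, against 11% of all genes. The sum of 8 macrophage markers was 1323 to 1407 with testosterone and 1139 to 2024 with vehicle after withdrawal, and 1479 to 1906 with testosterone and 2159 to 3459 with vehicle at the end, where 4 of the 8 fell with testosterone, against 8.01% of all genes. In vehicle mice 6 of the 8 were called lower after withdrawal than at the end, against 6.83% of all genes. In testosterone mice 0 were, against 5.31%. Endothelial markers, 5 in all, summed to 317 to 340.5 with testosterone and 308 to 364 with vehicle after withdrawal, and to 286 to 360.3 with testosterone and 336 to 449 with vehicle at the end, where 1 of the 5 fell, against 8.01% of all genes. In vehicle mice 1 of the 5 was called lower after withdrawal than at the end, against 6.83%. Stellate cell markers at the end summed to 138 to 155 with testosterone and 148 to 244 with vehicle. The sum of 3 red cell markers, nearly all of it Alas2, was 263 to 349 in testosterone mice and 61.1 to 123 in vehicle mice after withdrawal, and 268 to 336 with testosterone and 69.7 to 115 with vehicle at the end. Alas2 alone of the 3 passed the filter. Slc4a1 averaged 8.17 with testosterone and 8.45 with vehicle after withdrawal, and 10.1 and 8.48 at the end. Epb42 was at the floor in every mouse. Lymphocyte markers summed to 33.8 to 75.9 over all arrays, with 0 of the 7 on the array passing the filter. The part of these cells in the ribosomal protein values was not tested.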

How the data were processed

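Liver RNA of 12 mice was measured on 1 Affymetrix array each. TRIfast extraction, DNase, column cleaning and labelling in 1 cycle are recorded per the labels' protocols. The deposited values are linear signal intensities, scaled by the authors so that the 2% trimmed mean is alike on every array. GCOS and MAS5 are named in the submitters' processing notes, with versions not given in the sources used here. From these intensities, values under a floor of 4.84 (the 25th percentile) were set to it and log2 was taken. The probe set with the highest mean stood for a gene, named from the platform annotation. Genes above the array median on at least 3 of 12 arrays were tested (7217 genes; 11136 probe sets in a separate fit). Group means were fitted with limma 3.58.1 in R 4.3.3 (lmFit, eBayes with a variance trend), with Benjamini-Hochberg adjustment over all genes for each of 5 comparisons, and calls required an adjusted p under 0.05. Intervals cover 95%. The procedure was tested on simulated data.

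Members and gene lists were chosen with earlier results of these data known. The members named are a fixed list of well-known proteins, up to 6 called members per direction and comparison, the steepest slopes on the control ratio, and up to 4 called genes per related list. The labels do not say whether mice shared cages or litters. Mice of the same number did not deviate together (correlations of -0.19 to 0.01), so numbers were not used as pairs. The number of arrays limits the precision. Alternatives covered scaling, floor, filter, choice of probe set, control ratios, weights and leaving out each mouse.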

Additional observations from a re-analysis of the deposited data

Results flagged for a closer look

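Testosterone's effect was called different between the times, by the limma test of the difference (withdrawal minus end), for 1 gene and 3 probe sets. These were 1 of 41 genes, against 2.19% of all genes tested, and 3 of 75 probe sets, against 4.97% of all tested. Rps6 had a difference of -0.75 on the log2 scale, a call that was lost with the actin or the Gapdh ratio in the fit. Probe set 1416142_at, which stands for the gene, had -0.75 in the fit over probe sets. Probe set 1453096_x_at of Rpl27 had -0.77 (adjusted p = 0.0251), reading 461, 373 and 459 in testosterone mice and 446, 523 and 547 in vehicle mice after withdrawal. The brightest Rpl27 probe set had 0.07 (adjusted p = 0.795) and 1448217_a_at had -0.74 (adjusted p = 0.0704). Probe set 1422623_x_at of Rpl41 had 0.60 (adjusted p = 0.0276), reading 1367, 1244 and 1226 in testosterone mice and 1341, 1219 and 1254 in vehicle mice after withdrawal. The brighter Rpl41 probe set had 0.33 (adjusted p = 0.0749).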

How the results depend on the processing

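Of the changes of single named genes, over 80 results and all alternatives, 1902 kept direction and side of the threshold, 70 lost the call, 27 gained one and 0 reversed. Most that kept their side were never called, and only calls can be lost. The Rps6 difference between the times kept its call in 7 of 24 settings. At the end, Rps29 kept it in 10 of 25, Rpl38 in 11 of 25 and Rpl27a in 23 of 26. Between the times, Rplp2 (14 of 25) and Rps6 (21 of 25) kept theirs in testosterone mice and Rpl37 (19 of 25) in vehicle mice. The counts of called ribosomal protein genes were small, 3 at the end, 0 after withdrawal, 1 in the difference between the times, 1 in vehicle mice and 2 in testosterone mice between the times, and moved as follows; the cause was not tested. Array weights gave 7, 5, 4, 2 and 6 in that order. Median centring gave 1 at the end, 0 in the difference and 1 in testosterone mice, where probe sets also gave 1. Quantile normalization gave 0 in the difference and 1 in testosterone mice. A floor at the median signal gave 0 in the difference. No filter gave 0 in the difference, 0 in vehicle mice and 1 in testosterone mice. The mean of probe sets gave 1 after withdrawal and 2 in vehicle mice. Without probe sets of shared suffixes, which leaves 13 genes, there was 1 at the end, 0 in vehicle mice and 1 in testosterone mice. The actin ratio in the fit gave 0 at the end, in the difference and in testosterone mice; in vehicle mice the upward call of Rpl37 was lost and 1 other gene was called downward. The Gapdh ratio gave 0 in all 4. With only the groups compared, testosterone mice gave 1, and with no variance trend the difference gave 0 and testosterone mice 1. With the mouse number as a replicate block, the end gave 1, the difference 0 and testosterone mice 1, and probe sets gave 5 at the end, 2 in vehicle mice and 1 in testosterone mice, against 8, 4 and 2; the numbers pair no mice. Leaving out 1 mouse at a time gave 1 to 4 at the end, 0 to 4 after withdrawal, 0 to 4 in the difference, 0 to 2 in vehicle mice, 0 to 7 in testosterone mice and 0 to 0 for the slope on the actin ratio. Leaving out Rps19bp1 was not run, since it has 0 probe sets.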
